A study of Homo sapiens with 2 samples.

Results

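The cytokine-rich spots were the 419 spots of 2 breast tumor sections in which UMIs of 6 inflammatory genes made up the largest share of the local RNA, and the cytokine-poor spots were the 1048 in which that share was smallest. A spot is one capture area of a Visium slide, which reads out the RNA of the several cells or parts of cells above it, and a UMI is a tag that marks 1 captured RNA molecule. For each spot, K was computed as the UMIs of CXCL8, IL6, CXCL1, CXCL2, CXCL3 and PTGS2 per 10000 UMIs, averaged over the spot and its up to 6 adjacent spots. Among the 4196 of 5382 tissue spots with 5000 or more UMIs, the highest 10% of K in each tumor were taken as rich (223 spots in tumor 1, 196 in tumor 2) and the lowest 25% as poor (558 and 490). The choice rests on measured values, so the levels of the 6 genes are given as a description and were not tested. The lowest K of a rich spot was 1.2797 in tumor 1, against 1.2793 in the highest spot left outside, and 1.3055 against 1.3049 in tumor 2. The highest K of a poor spot was 0.3789 in tumor 1 and 0.2760 in tumor 2, against 0.3792 and 0.2762 in the lowest spots left outside.

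Both tumors were grown from MDA-MB-231, a mesenchymal triple-negative human breast cancer line, here carrying a fluorescent hypoxia fate-mapping system that leaves a lasting mark in cells that have passed through low oxygen. Neither was treated, and 10 μm cryosections were cut from tumors harvested on day 18 of growth in the host. The labels do not say how the 2 tumors relate to each other or to separate mice. Every p-value therefore rests only on the spread between these 2 sections, largely shared across genes, and that spread may be technical. The matrices held 58661164 UMIs in tumor 1 and 39736292 in tumor 2 over 36601 human features. RNA of mouse host cells that aligned to human genes cannot be told apart from tumor RNA, and in a spot more cells of a type cannot be told apart from more RNA per cell. Of the barcodes, 1627 occurred in both sections at the same array position, as the array design sets them. The fluorescence images, which carry the fate-mapping readout, were not used here.

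The labelled line was checked against its genes. Vimentin (VIM) stood at 5589 raw CPM (UMIs per 1000000 UMIs of the summed spots) in the rich and 5612 in the poor spots of tumor 1, and at 5641 and 5524 in tumor 2. S100A4, another gene of the mesenchymal list, was less even, at 622 against 830 and 487 against 900. Of 10 genes listed as low in the line, the estrogen receptor ESR1 and the epithelial cadherin CDH1 did not exceed 0.22 and 0.11 raw CPM in any of the 4 sums. Other members of that list were present, CLDN4 at 58.3 to 79.2, CLDN7 at 33.7 to 47.2, ERBB2 at 23.2 to 27.1 and EPCAM at 16.7 to 20.5 raw CPM, and the 10 summed to between 155 and 171.

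CXCL8, CXCL1, CXCL2 and CXCL3 encode chemokines that draw neutrophils through the receptors CXCR1 and CXCR2. IL6 encodes a cytokine that signals through the shared receptor gp130 to STAT3, and PTGS2 encodes cyclooxygenase-2, which opens the synthesis of prostaglandins. All 6 are textbook targets of NF-kB, a family of transcription factors that inhibitor proteins hold in the cytoplasm until a cytokine or stress signal has them degraded. NF-kB then switches on its own brakes, among them NFKBIA and TNFAIP3, together with the inflammatory genes. Low oxygen stabilises the factor HIF-1, which drives glycolytic, angiogenic and pH-regulating genes, and hypoxia and NF-kB can act on the same cytokine promoters.

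The promoters of the 6 genes are shown because most of them share a single short motif. From RefSeq on GRCh38.p14, each line gives the stretch from 140 to 21 bases before the start site, on the strand of the gene, with every match to GGNNTTTCC on either strand in capitals, a form of the NF-kB site. They lie at chr4:73740429-73740548 (CXCL8, plus strand), chr7:22727060-22727179 (IL6, plus), chr4:73869253-73869372 (CXCL1, plus), chr4:74099216-74099335 (CXCL2, minus), chr4:74038710-74038829 (CXCL3, minus) and chr1:186680444-186680563 (PTGS2, minus).
CXCL8: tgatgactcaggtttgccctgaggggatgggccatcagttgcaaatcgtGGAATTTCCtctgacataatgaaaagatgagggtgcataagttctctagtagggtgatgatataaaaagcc
IL6: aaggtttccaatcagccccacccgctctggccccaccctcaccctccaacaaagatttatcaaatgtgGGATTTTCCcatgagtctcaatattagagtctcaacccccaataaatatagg
CXCL1: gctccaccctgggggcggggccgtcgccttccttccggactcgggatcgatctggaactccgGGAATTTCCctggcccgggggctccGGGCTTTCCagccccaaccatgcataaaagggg
CXCL2: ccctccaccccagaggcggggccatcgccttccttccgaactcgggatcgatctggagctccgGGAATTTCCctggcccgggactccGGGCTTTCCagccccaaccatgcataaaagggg
CXCL3: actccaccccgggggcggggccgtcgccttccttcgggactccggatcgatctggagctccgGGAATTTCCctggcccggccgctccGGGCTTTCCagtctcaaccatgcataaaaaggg
PTGS2: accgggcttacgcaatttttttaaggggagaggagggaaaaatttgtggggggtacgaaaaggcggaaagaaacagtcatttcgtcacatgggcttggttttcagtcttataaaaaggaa
Counted to the first base of the match, the motif began 91 bases before the start in CXCL8 and 72 bases before it in IL6. CXCL1 and CXCL3 each held it at -78 and -53, and CXCL2 held it at -77 and -53. These 3 chemokine genes lie in 1 cluster on chromosome 4, and their promoters are near-copies. In windows of 300 bases (250 before to 50 after the start), 5 of the 6 genes held GGNNTTTCC, against 6.26% of the 27305 promoters in the RefSeq table, and only PTGS2 held no match there. GGGNNTCCC, the other form of the NF-kB site searched, lay in none of the 6, against 7.69% of those promoters. Such a match is a description of letters and not evidence of binding.

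In the rich spots the 6 genes together gave 3.88 UMIs per spot in tumor 1 and 3.55 in tumor 2, against 0.694 and 0.292 in the poor spots. CXCL8 supplied 60.5% and 57.6% of those UMIs in the rich spots. Its level was 110.1 raw CPM in the rich, 32.9 in the intermediate and 11.2 in the poor spots of tumor 1, and 119.7, 29.3 and 6.23 in tumor 2. IL6 stood at 17.3 and 18.2 raw CPM in the rich spots of tumors 1 and 2, against 2.94 and 3.12 in the poor spots. PTGS2 stood at 14.1 and 28.3 against 4.28 and 1.78. All 6 genes were therefore higher in the rich spots of both tumors, which the choice of spots fixes. When a gene was left out of K and the spots were chosen by the other 5, its rich-over-poor ratio was 3.48 and 4.93 for CXCL8, 2.88 and 3.43 for IL6, 2.39 and 4.20 for CXCL1, 3.73 and 3.54 for CXCL2, and 3.36 and 5.19 for CXCL3. For PTGS2 that ratio was 4.97 in tumor 2 but 1.18 in tumor 1, where 45 UMIs in the rich spots gave 8.94 raw CPM against 7.58 in the poor spots. Where the adjacent spots alone chose the groups, the 6 genes of the central spots themselves were 3.0-fold and 5.56-fold higher. Spot by spot, without smoothing and with few UMIs per spot, the 15 pairs of the 6 genes correlated only weakly. The correlations ran from -0.033 to 0.128 in tumor 1 (median 0.035) and from -0.013 to 0.162 in tumor 2 (median 0.093). CXCL1, CXCL2 and CXCL3 are similar in sequence, so reads may have been split between them.

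Rich spots lay in patches. They formed 30 connected patches in tumor 1 and 22 in tumor 2, the largest of 67 and 34 spots, and the patches of 10 or more spots held 162 of the 223 and 153 of the 196 rich spots. The smoothing over adjacent spots favours such patches by construction.

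**Figure D1:**
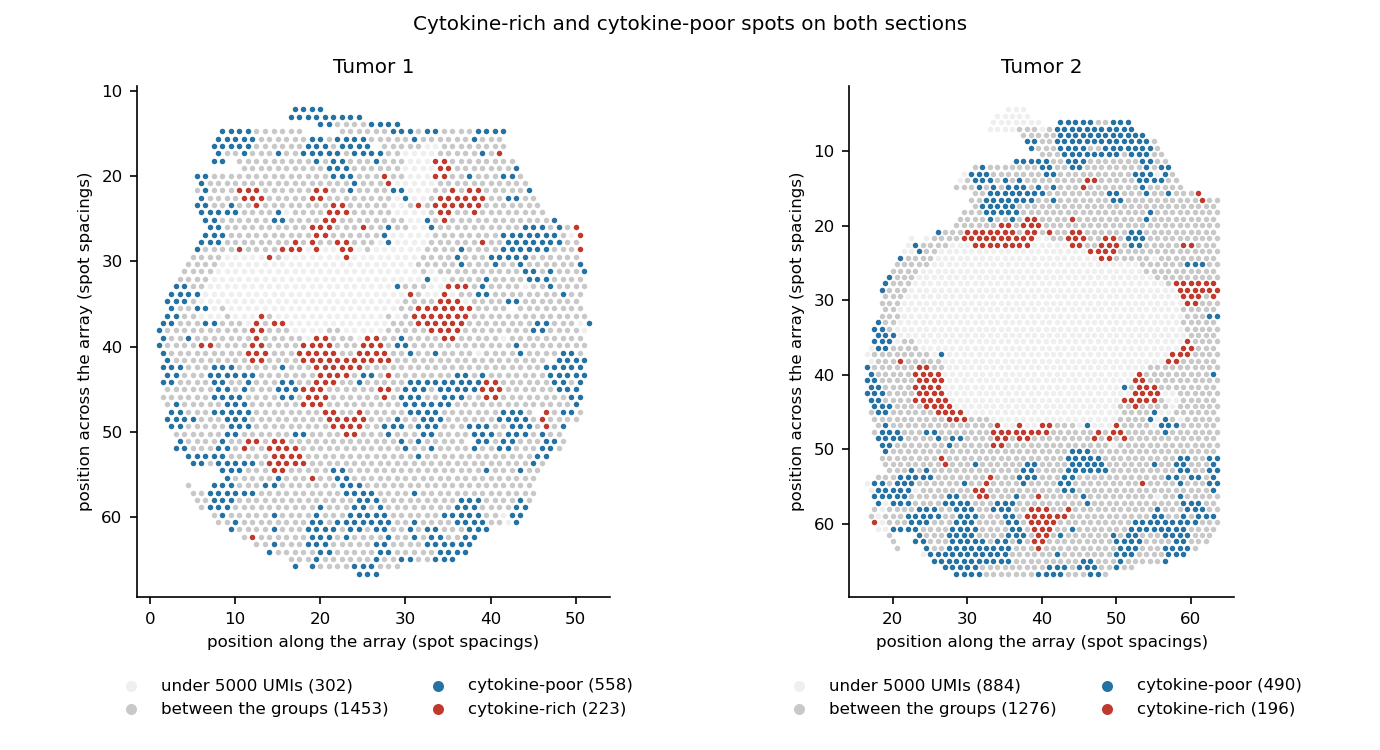
Map of both sections, each point 1 tissue spot at its array position in spot spacings, with cytokine-rich spots in red, cytokine-poor spots in blue, spots between the groups in gray and spots under 5000 UMIs in pale gray. Many red spots border the central area of low UMIs, and blue spots are frequent along the outer edge.

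The rich spots lay deeper in the tissue and in parts with higher hypoxia genes than the poor spots in both tumors. Depth was counted in border steps, the number of spots on the shortest way to an area off the tissue. Rich spots lay at a median of 14 steps in tumor 1 and 13 in tumor 2, and poor spots at 4 and 5. The mean difference was 8.08 steps in tumor 1 and 7.41 in tumor 2 (7.74 ± 0.473, SD, n = 2 tumors). The hypoxia score is the mean standardised level of 27 HIF target genes, smoothed over adjacent spots like K. Its median was 0.31 in the rich and -0.15 in the poor spots of tumor 1, and 0.38 and -0.38 in tumor 2, and the mean difference was 0.537 ± 0.204 (SD, n = 2 tumors). An exact paired test over 2 tumors cannot go below p = 0.5, so no test was made. PTGS2 can itself respond to hypoxia, and without it in K the difference in score was 0.231 in tumor 1 and 0.576 in tumor 2. With every spot thinned to 5000 UMIs the difference in score was 0.324 ± 0.0798 (SD, n = 2 tumors).

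The poor group was not confined to the border, and the rich group was not confined to high scores. Of the rich spots, 80.3% in tumor 1 and 82.7% in tumor 2 belonged to the higher-scoring 50% of their section, against 36.9% and 19.2% of the poor spots. Among higher-scoring spots 1 or 2 steps from the border, where the score was high but the position shallow, 1.37% were rich and 52.5% poor in tumor 1, and 1.89% and 32.1% in tumor 2. At 10 or more steps, 32.2% and 18.9% of the higher-scoring spots were rich. Among lower-scoring spots of that depth 5.87% and 11% were rich, against 1.04% and 0.575% of those 1 or 2 steps from the border. In the higher-scoring class the share of rich spots was thus lowest at the border, and in the lower-scoring class it was lowest at 3 to 5 steps, with 0.763% in tumor 1 and 0 of 262 spots in tumor 2.

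**Figure D2:**
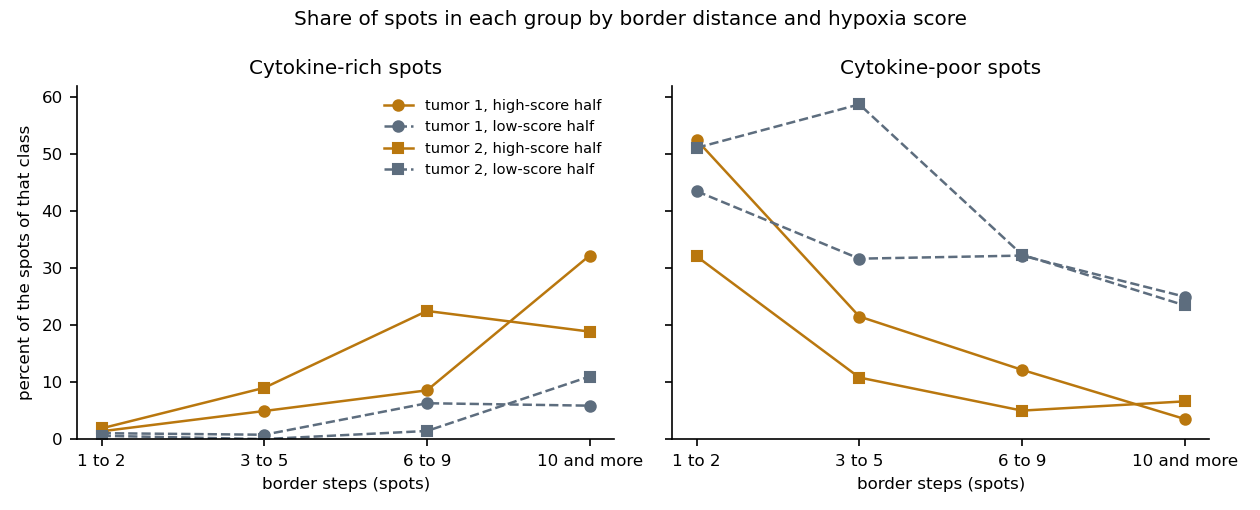
Percent of the spots of each class of border steps that were cytokine-rich (left) or cytokine-poor (right), by tumor and by the higher-scoring (solid) and lower-scoring (dashed) spots of each tumor. At 10 or more steps 32.2% and 18.9% of the higher-scoring spots were rich, and at 1 to 2 steps 1.37% and 1.89%.

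Several other properties moved with the groups. The median rich spot held 19068 UMIs against 26734.5 in the poor spots of tumor 1, and 17287 against 18754 in tumor 2. Spots within 2 steps of an area under 5000 UMIs made up 31.8% and 56.6% of the rich but 6.99% and 14.1% of the poor spots. Fibroblast marker genes (14 genes) summed to 543 raw CPM in the rich and 1564 in the poor spots of tumor 1, and to 437 and 2006 in tumor 2. Skeletal muscle markers (10 genes) summed to 28.6 against 523 in tumor 2 and to 10.7 against 15.1 in tumor 1. Granulocyte markers (9 genes) stayed at or below 0.9 raw CPM in all 4 sums, with CXCR1, CXCR2 and ELANE at 0 in each. A count of 0 allows up to 0.632 and 0.895 raw CPM in the rich sums (3 counts, counting error only). The receptors of the CXCL8 family were thus not detected among the human features at this depth. RNA of host cells enters only where it aligned to human genes, so these values do not measure granulocytes of the host. The part of depth and of other cells in the results below was not tested, beyond the values given beside them.

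To ask what else differed, UMIs were summed per tumor and group, and 13168 genes were tested with edgeR's quasi-likelihood test with tumor as a block. Of these, 515 were higher in rich spots (3.91%) and 367 lower (2.79%) at an adjusted p under 0.05, the 6 genes excluded. Levels below are CPM after the fit's TMM scaling, as rich against poor with tumor 1 first. Fold changes are log2 values over n = 2 tumors, with the standard error of the fit. That error rests on a spread shared across genes, so it does not show how far the 2 tumors differed for a given gene. Hypoxia genes were among the higher genes with large folds, and skeletal muscle and collagen genes among the lower ones. Because the spots were chosen by expression in the same sections, any gene that varies across the tissue along with the 6 genes can pass, and the counts say nothing of which gene drives which. With 1 residual degree of freedom the spread was borrowed across genes: DESeq2 on the same sums called 58 higher and 26 lower, and with PTGS2 left out of K edgeR called 139 and 132. Higher genes made up 58.4% of the calls, and 34.6% (325 higher, 615 lower) where sums were scaled to library size alone.

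Of the 27 HIF target genes of the score, 25 were higher in the rich spots and none lower, with a median log2 fold change of 0.85 against 0.00 over all genes tested. ADM, a vessel-dilating peptide, stood at 193 against 75.3 CPM in tumor 1 and 161 against 33.7 in tumor 2, a log2 fold change of 1.74 ± 0.09 (edgeR adjusted p = 2.3e-83). HILPDA, a lipid droplet protein, stood at 50.7 against 14.6 and 32.5 against 8.7 CPM (1.83 ± 0.14). DDIT4, an inhibitor of mTORC1, EGLN3, an oxygen-sensing hydroxylase, and NDRG1 had log2 fold changes of 1.51, 1.62 and 1.29. In each of these 5 genes both rich sums lay above both poor sums. P4HA2 and CA12 were the 2 members that did not pass. DESeq2 called 11 of the 27, and edgeR with K without PTGS2 called 16.

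Genes outside the score with a like direction were DEPP1, a FOXO target, at 80.5 against 28.1 and 63.7 against 10.5 CPM (1.91 ± 0.11, edgeR adjusted p = 8.5e-63), and PLIN2, a lipid droplet coat protein, at 202 against 94.5 and 220 against 61.0 (1.45 ± 0.08). LOX, which cross-links collagen, and ARRDC3, an arrestin family member, had log2 fold changes of 1.45 and 1.27. Of 16 glycolysis genes outside the score 6 were higher, led by the glucose transporter SLC2A3 (1.34 ± 0.09) and the aldolase ALDOC (1.03 ± 0.09).

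Among 21 other cytokine and chemokine ligands tested, 7 were higher and 3 lower, with a median of 0.36. CCL20, a chemokine for CCR6-bearing lymphocytes and dendritic cells, gave 30 UMIs in the rich and 20 in the poor spots of tumor 1 and 20 and 4 in tumor 2, that is 6.32 against 1.34 and 5.97 against 0.445 raw CPM (log2 fold change 2.71 ± 0.39, edgeR adjusted p = 3.3e-10). CSF2, the granulocyte-macrophage colony-stimulating factor, stood at 28.1 against 7.99 and 25.9 against 7.65 CPM (1.79 ± 0.18, adjusted p = 1.4e-21). TNFSF10, the death ligand TRAIL, and IL1B, an upstream activator of NF-kB, were higher at low levels, IL1B at 3.07 against 2.10 and 4.21 against 0.629 CPM (1.28 ± 0.41, adjusted p = 0.035). CCL26 was higher in tumor 2 (57.1 against 16.9 CPM) but stood at 24.8 against 28.6 in tumor 1. IL32 (1.10) and IL11 (0.32) completed the higher members, and CXCL14 (-1.30), CXCL12 (-1.23) and CCL5 (-1.11) were lower. Of 19 receptors 3 were higher, the CXCL12 receptor CXCR4 (0.99 ± 0.13), the oncostatin M receptor OSMR (0.58) and the IL-1 co-receptor IL1RAP (0.53), and none was lower. DESeq2 called 1 of the 21 ligands, CSF2, and gave CCL20 no adjusted p.

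In the NF-kB pathway, some of the feedback inhibitors and targets and a few core genes were higher. Of 24 subunits and activators 2 were higher, RELB at 34.0 against 20.8 and 31.0 against 18.1 CPM (0.74 ± 0.14) and NFKB2 (0.45 ± 0.11), both of the non-canonical arm. Of 15 feedback inhibitors 5 were higher and none lower. TNFAIP3, the A20 deubiquitinase that shuts off the pathway, stood at 27.4 against 10.2 CPM in tumor 1 and 34.3 against 7.33 in tumor 2 (1.76 ± 0.16, edgeR adjusted p = 2.5e-24). NFKBIA (0.56), the mRNA decay factor ZFP36L1 (0.54), OTUD1 (0.54) and TNIP1 (0.38) were the others. The difference in share between these lists was not tested, and DESeq2 called 2 of the 15, TNFAIP3 among them.

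Of 25 other NF-kB targets 11 were higher and 2 lower, with a median of 0.38. BIRC3, an inhibitor of apoptosis, stood at 31.8 against 16.2 and 30.1 against 12 CPM (1.11 ± 0.15, edgeR adjusted p = 9e-12). ICAM1, an adhesion molecule for leukocytes, stood at 77.7 against 45.0 and 68.5 against 35.7 (0.85 ± 0.10). CEBPB, a factor that binds the IL6 promoter, stood at 220 against 143 and 243 against 145 (0.69 ± 0.08), and SOD2, a mitochondrial superoxide dismutase, at 114 against 76.8 and 119 against 70.5 (0.66 ± 0.09). MMP3 had the largest fold of the list at low counts (1.40 ± 0.44, adjusted p = 0.026). The acute-phase gene SAA1 went the other way, at 9.43 against 21.2 and 17.4 against 36.6 CPM (-1.11 ± 0.16), as did complement factor CFB (-0.53). Without the spots richest in markers of other cells the fold of SAA1 was 0.39 and did not pass. DESeq2 called 5 of the 25 higher and 1 lower, and BIRC3, ICAM1, CEBPB, SOD2 and SAA1 were among them.

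TNFAIP3 and CCL20 are shown beside the 6 genes because both carry the same motif close to their start sites, at chr6:137867119-137867238 (plus strand) and chr2:227813702-227813821 (plus strand) on GRCh38.p14, again from 140 to 21 bases before the start with GGNNTTTCC on either strand in capitals.
TNFAIP3: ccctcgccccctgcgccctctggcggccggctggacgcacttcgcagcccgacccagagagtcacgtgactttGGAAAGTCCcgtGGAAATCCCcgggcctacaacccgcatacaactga
CCL20: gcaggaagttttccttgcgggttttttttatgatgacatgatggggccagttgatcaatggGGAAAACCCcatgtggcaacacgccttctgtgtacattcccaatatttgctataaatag
The TNFAIP3 matches began at -67 and -55 and the CCL20 match at -79, all 3 on the reverse strand. BIRC3, ICAM1 and NFKBIA held matches further out or beside these, beginning at -199, -186 and at -242 and -81. CSF2 held no match in the stretch from 140 to 21 bases before its start. Of the 13 higher members of both NF-kB target lists with a promoter in the table, 5 held the motif (38.5%). These lists were drawn up from known NF-kB genes, so that share follows from the lists and says nothing of the rich spots. Among all genes higher in rich spots 38 of 398 did (9.55%), among lower genes 4.04%, and among all genes tested 6.55%. GGGNNTCCC went the other way, in 4.52% of higher genes, 9.19% of lower and 9.52% of all genes tested. It lay in none of the 13 list members. The AP-1 site TGANTCA lay in 8.54%, 6.25% and 4.67%, and also in none of the 13. The hypoxia response core ACGTG, searched on both strands, lay in 32.2% of the promoters of higher genes, 24.3% of lower and 27.0% of all genes tested. TATAAA lay in 12.8%, 9.19% and 5.50%.

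Stress, growth factor, IL-6 family and prostaglandin genes were read from 5 lists. Of 20 AP-1 and immediate early factors 10 were higher and none lower, led by the hypoxia-responsive repressor BHLHE40 (171 against 103 and 209 against 83.5 CPM, 1.02 ± 0.08), NR4A2 (0.84) and FOSL2 (0.82). Of 18 MAPK feedback genes 7 were higher, led by the phosphatase DUSP1 at 249 against 140 and 274 against 90.3 CPM (1.2 ± 0.08, edgeR adjusted p = 1.1e-45) and the EGFR inhibitor ERRFI1 (1.05 ± 0.08). DESeq2 called 2 of each of these lists, BHLHE40 and ERRFI1 among them. Of 5 genes of EGFR and its ligands only TGFA passed (0.60 ± 0.15), and the median was -0.07. Of 17 genes of IL-6 family signalling and STAT3 targets 2 were higher, the kinases PIM1 (0.47) and PIM3 (0.36), and the median of the list was 0.00. None of 13 prostaglandin pathway genes passed in edgeR or DESeq2, and 2 had an unadjusted p under 0.05, TBXAS1 (-1.32 ± 0.63) and AKR1C1 (0.82 ± 0.40), both under 4 CPM in every sum.

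Genes that act on the matrix split. The collagenase MMP1 stood at 86.4 against 40.5 and 124 against 45.8 CPM (1.26 ± 0.09, edgeR adjusted p = 3.7e-38) and MMP10 at 5.27 against 2.77 and 9.32 against 2.93 (1.28 ± 0.31), and F3, the trigger of coagulation, was higher as well (0.70). MMP2, MMP14, TIMP2, TIMP3 and PLAU were lower. All but 1 of the 11 fibroblast markers tested were lower, with COL3A1 at 100 against 451 and 59.2 against 569 CPM (-2.65 ± 0.09, adjusted p = 5.5e-178). COL1A2 (-1.72), COL1A1 (-1.68), the elastic fibre gene EFEMP2 (-1.68) and SPARC (-1.38) were lower too, and all 4 were lower in both tumors. All 3 skeletal muscle markers tested were lower, with a median of -4.68 that was -0.53 in tumor 1 and -4.63 in tumor 2. The muscle actin ACTA1 stood at 3.91 against 141 CPM in tumor 2 but at 1.10 against 1.69 in tumor 1.

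Cell cycle genes that passed were lower in the rich spots, and stress genes that passed were mostly higher. Of 24 S phase genes 9 were lower and none higher, with a median of -0.29, GINS2 at 24.6 against 30.0 and 21.9 against 35.1 CPM (-0.46 ± 0.13). DESeq2, and edgeR with K without PTGS2, called none of the 24, and edgeR on spots thinned to 5000 UMIs called 2. Of 25 G2 and M phase genes 2 were lower, CDC20 and BIRC5, each by 0.31 on the log2 scale. Of 14 heat shock genes 6 were higher, and HSPA6, the strictly inducible member, stood at 38.4 against 21.5 in tumor 1 and 86.0 against 12.6 in tumor 2 (1.73 ± 0.12), while DESeq2 called none of the 14. HSPA1A and HSPA1B, near-copies that share reads, were among the 6. Of 18 ATF4 targets 6 were higher, led by the stress cytokine GDF15 at 19.3 against 8.46 and 18.6 against 5.45 CPM (1.42 ± 0.20).

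**Figure D3:**
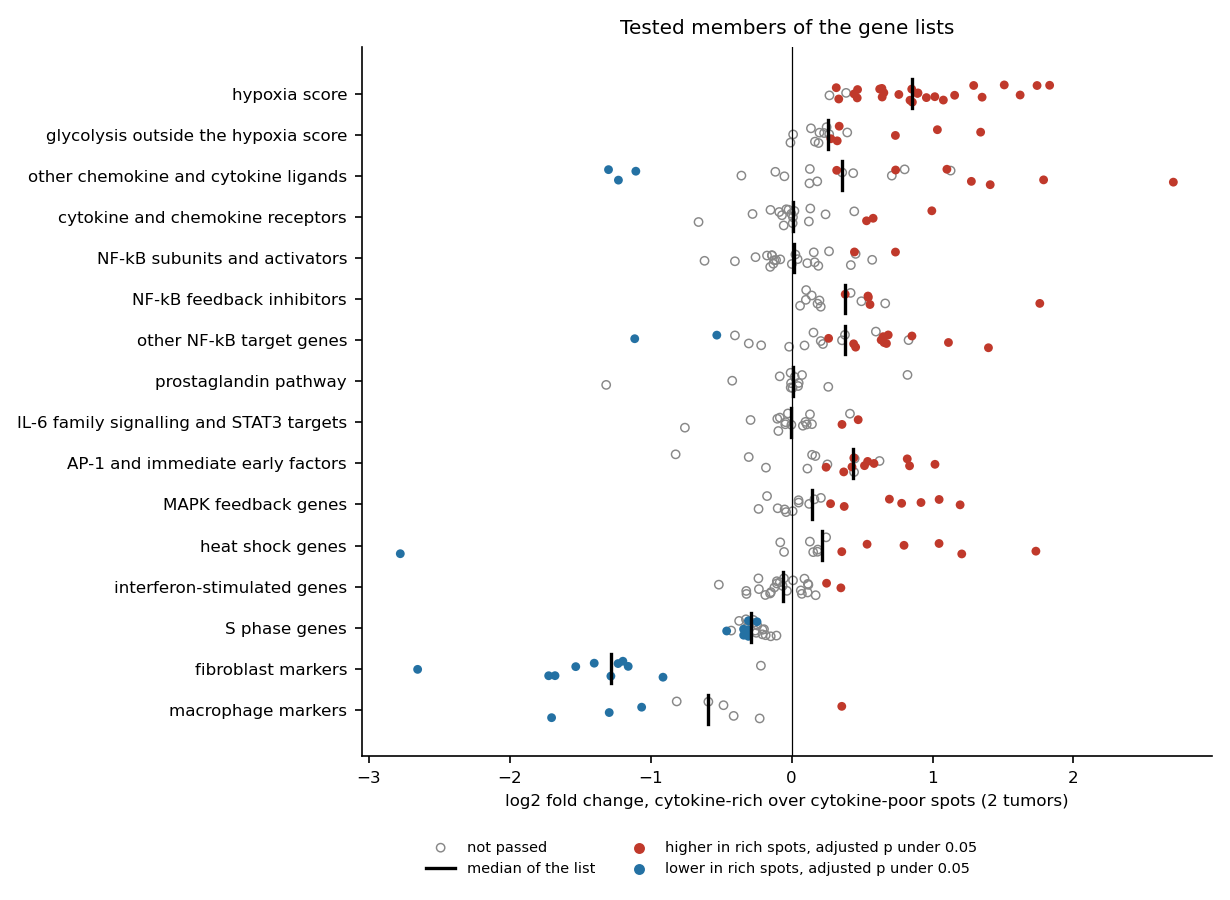
Log2 fold change of cytokine-rich over cytokine-poor spots for the tested members of 16 gene lists, 1 point per gene from edgeR over 2 tumors, filled where the adjusted p was under 0.05, with a bar at each list's median. The hypoxia score genes sit around 0.85 and the fibroblast markers around -1.28.

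Levels were also read across the whole range of K. Across 10 groups of spots of equal number ordered by K, TNFAIP3 stood at 10.8 raw CPM in the lowest, 11.6 in the fifth and 26.3 in the highest group of tumor 1, and at 7.52, 12.8 and 34.0 in tumor 2. CSF2 stayed between 5.63 and 15.1 raw CPM in the lower 9 groups of tumor 1 and reached 27.0 in the highest, and in tumor 2 it stayed between 7.04 and 14.9 and reached 25.7. COL3A1 stood at 581 in the lowest and 96.0 in the highest group of tumor 1, and at 742 and 58.8 in tumor 2. CSF2 was thus set apart in the highest group, while COL3A1 differed along much of the order.

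**Figure D4:**
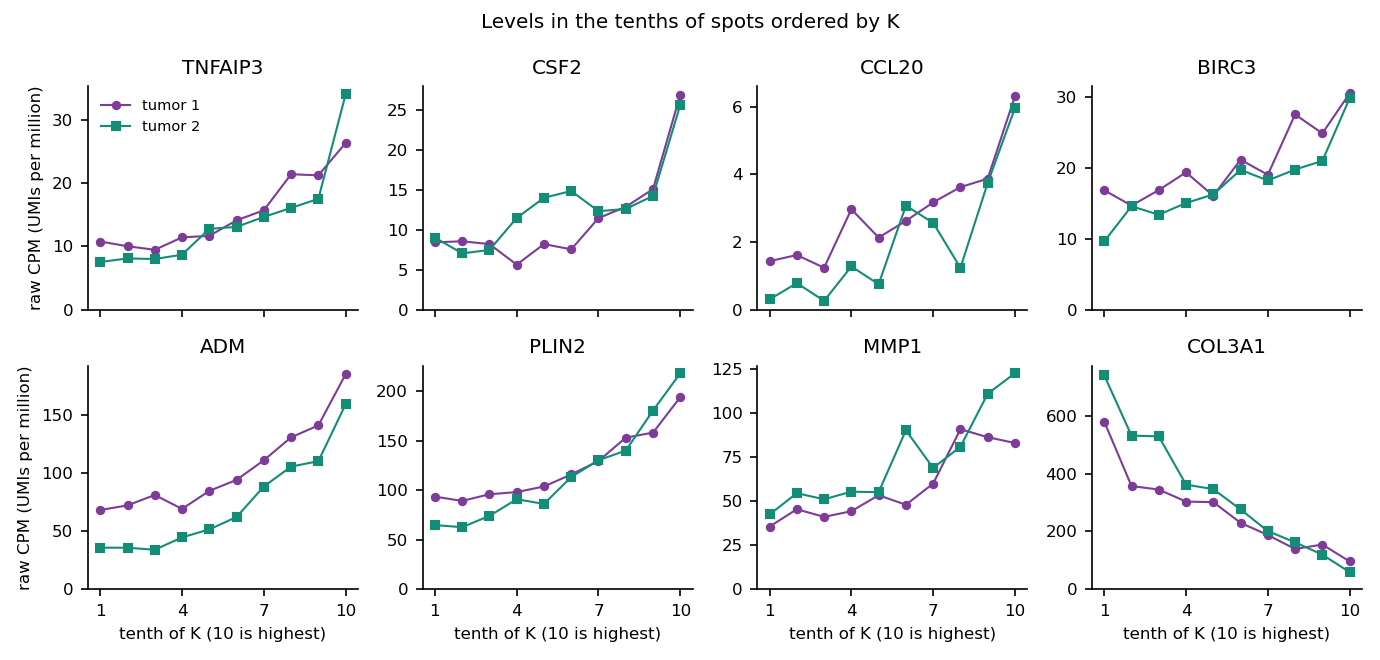
raw CPM of 8 genes in 10 groups of spots ordered by K (10 is the highest), with 1 line per tumor. CSF2 is highest in the top group of both tumors (27.0 and 25.7), and COL3A1 is lowest there (96.0 and 58.8).

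To compare rich with poor spots at a like level of hypoxia, rich spots were paired with poor spots of their tumor of nearly the same score. Pairs were found for 210 of the 223 rich spots of tumor 1 and 126 of the 196 of tumor 2, and the other rich spots were left out. Over all rich spots the median score had been 0.31 and 0.38, so the rich sums changed as well as the poor ones. Median scores were then 0.253 against 0.226 and 0.165 against 0.113, while depth still differed at 13 against 2.5 and 14 against 5 border steps. In this comparison 161 of 11857 genes were higher (1.36%) and 233 lower (1.97%). Both comparisons share spots, so their values are given side by side and not as separate evidence.

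CCL20 gave 26 against 5 UMIs in tumor 1 and 11 against 1 in tumor 2 (log2 fold change 2.72 ± 0.56, edgeR adjusted p = 0.00012), and CSF2 stood at 26.1 against 7.02 and 17.0 against 10.1 CPM (1.51 ± 0.22). TNFAIP3 stood at 27.5 against 13.2 and 22.2 against 11.8 (1.01 ± 0.19, adjusted p = 1.5e-05), the only 1 of 15 feedback inhibitors to pass. Of 23 other NF-kB targets 8 were higher and 2 lower, with BIRC3 at 0.91, PTX3 at 0.62, ICAM1 at 0.57 and CEBPB at 0.51. MMP1 (0.98), the short-chain reductase DHRS2 (0.95) and PLIN2 (0.86) were among the largest of the higher genes. Of 14 heat shock genes 8 were higher and 1 lower, with HSPA6 at 0.94, and none of the 14 was higher once the spots highest in other cells' markers were left out. Of 25 interferon-stimulated genes 4 were higher, OAS1 at 28.9 against 16.2 and 29.0 against 15.8 CPM (0.84 ± 0.18) with MX1, XAF1 and IFITM1. The median of that list was 0.32 in tumor 1 but -0.07 in tumor 2, and 9 of the 25 were above 0 in both. The lower genes were led by COL3A1 (-3.04), the metallothionein MT1M (-2.99), SAA1 (-2.24), EFEMP2 (-2.16), MFAP5 (-2.16) and COL1A2 (-2.0). None of 24 S phase genes passed in edgeR or DESeq2 (1 at an unadjusted p under 0.05), and their median was -0.06. Fibroblast markers summed to 550 against 2212 raw CPM and 516 against 2336, and DESeq2 on these sums called 4 genes higher and 30 lower. None of the 4 was a cytokine ligand, a feedback inhibitor or another NF-kB target of the lists.

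Since depth still differed, the pairs were also held to within 2 border steps of each other, an alternative added after the data were seen. This left 103 and 78 pairs with median steps of 10 against 9 and 13 against 12, scores of 0.019 against -0.026 and 0.026 against 0.015, and UMIs of 25831 against 25882 and 21607.5 against 22685. UMIs were not matched, and in tumor 1 their quartiles were 9387.5 to 39209 in the rich and 19099 to 33348.5 in the poor spots. Spots within 2 steps of an area under 5000 UMIs still made up 27.2% against 14.6% in tumor 1 and 21.8% against 16.7% in tumor 2. The 6 genes still gave 508 against 73 UMIs in tumor 1 and 330 against 31 in tumor 2, as the choice of spots sets them. Of 10999 genes 27 were higher (0.245%) and 19 lower (0.173%), and the genes below were named from these calls after their values were seen. Fibroblast markers summed to 621 against 915 and 617 against 1037 raw CPM, still lower in the rich spots of both tumors.

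CCL20 gave 18 UMIs against 1 in tumor 1, a ratio of 17.2 (exact 95% interval for counting error only, 2.72 to 717), and 9 against 0 in tumor 2, at least 2.90-fold higher at a floor of 3 counts in the poor sum (edgeR adjusted p = 0.00015). Of 22 other NF-kB targets 3 were higher. G0S2, an inhibitor of fat breakdown, stood at 170 against 120 and 200 against 106 CPM (0.68 ± 0.09, adjusted p = 2.8e-10), IER3 at 197 against 150 and 233 against 162 (0.45 ± 0.08), and CEBPB at 199 against 155 and 219 against 163 (0.39 ± 0.08). TNFAIP3 stood at 18.9 against 12.1 and 21.2 against 13.8 CPM (0.63 ± 0.26, adjusted p = 0.56) and CSF2 at 16.6 against 6.84 and 13.5 against 7.20 (1.13 ± 0.33, adjusted p = 0.10), so neither passed, though both were above the poor spots in each tumor.

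Of 17 cholesterol synthesis genes 3 were higher in these closest pairs, HMGCS1 (0.58), INSIG1 (0.48) and IDI1 (0.47), with a median of 0.32 over the list against 0.00 over all genes. Over all spots 4 of the 17 were higher and 1 lower (median 0.15), and in pairs matched on the score alone 4 were higher and none lower (0.22). The desaturase SCD, which is in no list, had a log2 fold change of 0.58 (adjusted p = 2.1e-12, edgeR). The chaperone HSPA5 stood at 593 against 422 and 538 against 450 CPM (0.38 ± 0.06), GDF15 at 20.9 against 11.3 and 18.2 against 3.60 (1.29 ± 0.30), and MMP1 at 73.0 against 43.9 and 97.7 against 64.2 (0.67 ± 0.13). None of 14 heat shock genes passed in edgeR (7 had an unadjusted p under 0.05, 1 of them higher), and HSPA6 stood at 13.9 against 31.8 in tumor 1 and 36.5 against 32.4 in tumor 2. None of 17 AP-1 factors passed either (2 at an unadjusted p under 0.05), and BHLHE40 had a fold of -0.01. The same held for 24 interferon-stimulated genes, of which none passed in edgeR and 2 had an unadjusted p under 0.05. Lower genes included COL3A1 (-1.03 ± 0.09), COL1A1 (-0.67), CCL26 (-0.82, from 16.2 against 48.7 CPM in tumor 1 and 32.4 against 28.2 in tumor 2) and TIMP1 (-0.25).

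**Figure D5:**
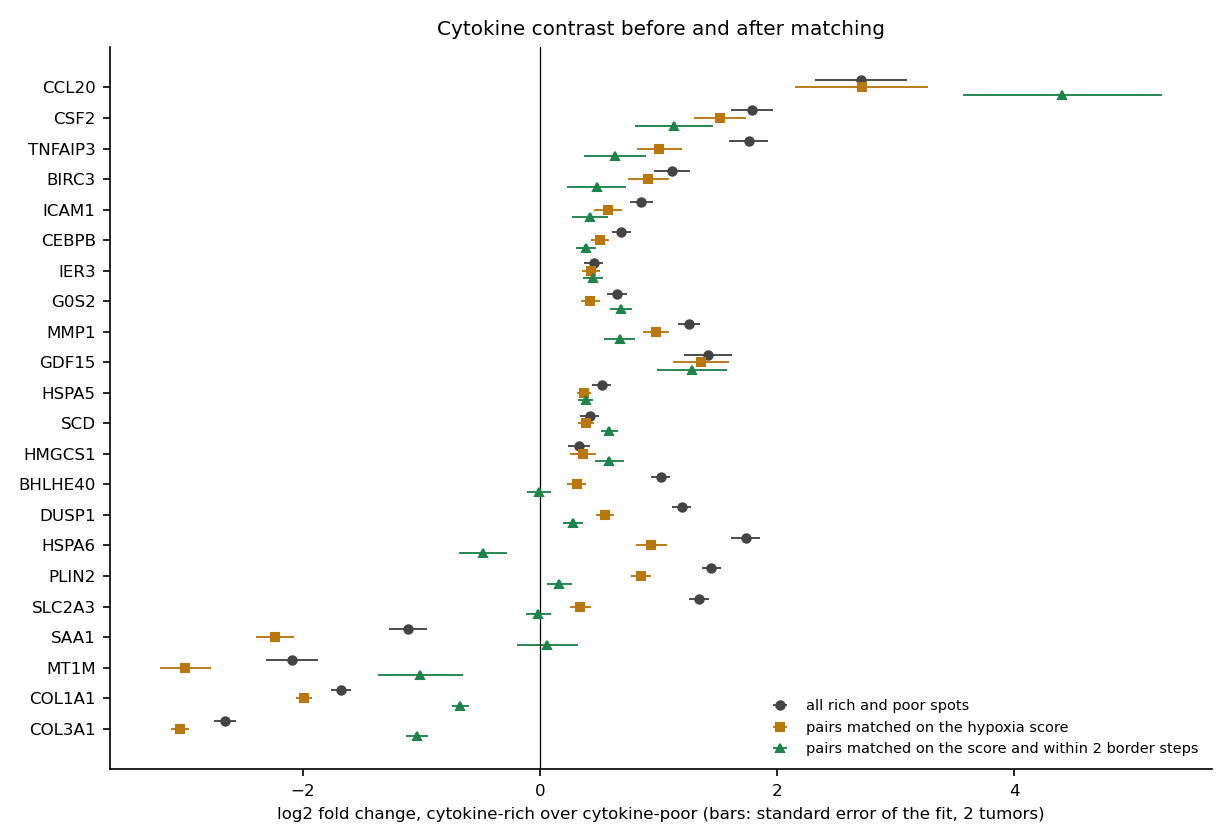
Log2 fold change with the standard error of the fit for 22 genes between cytokine-rich and cytokine-poor spots (n = 2 tumors). Values are for all spots, for pairs matched on the hypoxia score, and for pairs also within 2 border steps. CEBPB and IER3 keep folds between 0.39 and 0.69 in all 3, while BHLHE40 has 1.02 over all spots and -0.01 in the closest pairs.

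Whether the cytokine contrast differed between the higher- and lower-scoring spots was tested as an interaction over 8 sums. Of 12054 genes 5 had a higher contrast in the higher-scoring spots (0.0415%) and 17 a lower one (0.141%). The contrast of PLIN2 was 0.03 in the lower- and 1.23 in the higher-scoring spots, a difference of 1.2 ± 0.19 (edgeR adjusted p = 6.4e-05). HSPA1B (0.93), CITED2 (0.86), a HIF antagonist, and DNAJB1 (0.79) were the other named genes with a higher contrast, and these 4 were chosen after their values were seen. SAA1 had a contrast of 0.51 in the lower- and -2.88 in the higher-scoring spots (difference -3.38 ± 0.38, adjusted p = 1.4e-08), and HPR one of 0.53 and -1.46. The contrast of TNFAIP3 was 1.36 ± 0.31 in the lower- and 1.26 ± 0.19 in the higher-scoring spots, and the difference of -0.07 ± 0.34 did not pass. That of CSF2 was 0.37 ± 0.37 and 1.96 ± 0.22 (difference 1.58 ± 0.41, adjusted p = 0.12). Taken alone, the 78 lower-scoring rich spots gave 34 higher (0.274%) and 30 lower genes (0.242%) of 12395, and the higher-scoring ones 204 (1.76%) and 267 (2.3%) of 11597.

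The patches of rich spots spanned low and high hypoxia scores. Among the 13 patches of 10 or more spots the mean score ran from -0.25 to 0.54 in tumor 1 and from -0.21 to 0.90 in tumor 2, and the 6 genes from 159 to 246 and from 175 to 276 raw CPM. The lowest-scoring patch of tumor 1 (17 spots, score -0.25) had the highest level of the 6 genes there, 246 raw CPM, with PTGS2 at 8.19 (6 UMIs). The lowest-scoring patch of tumor 2 (22 spots, -0.21) had the 6 genes at 201 and PTGS2 at 7.95 (4 UMIs). The highest-scoring patches had PTGS2 at 37.5 in tumor 1 (33 spots, 17 UMIs) and 50.5 in tumor 2 (34 spots, 24 UMIs). TNFAIP3 stood at 21.8 and 13.9 raw CPM in the 2 low-scoring patches, from 16 and 7 UMIs, and at 24.3 and 59.0 in the 2 high-scoring ones, from 11 and 28. Neighbouring spots of a patch share their surroundings and enter each other's K, so these values are a description.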

How the data were processed

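The deposited files hold UMI counts per gene and spot, which the authors made with Space Ranger (version 1.3.0 in the file headers; build hg38 in the submitters' processing notes), and deposited lists of array positions. Annotation release and read filters are not given in the sources used here. Visium captures polyadenylated RNA, and no doublet caller applies to spots. Spots are not replicates, so counts were summed per tumor and group (n = 2 tumors) and tested with edgeR 4.0.16 in R 4.3.3: TMM, filterByExpr, glmQLFit and glmQLFTest, tumor as a block, Benjamini-Hochberg adjustment over all genes tested, threshold 0.05. DESeq2 1.42.0 was an alternative. Score genes stayed out of matched and interaction tests. Pairs took the nearest unused poor spot within 0.2 SD of the score. Border steps ran to off-tissue areas of 5 or more positions; the frame edge did not count as border. Groups of both score classes were split at the tumor's median. Named genes were the 12 highest and 12 lowest called genes of at least 20 CPM with 1 sign in both tumors, 6 and 6 after matching, 5 in the interaction, the 2 leaders of each list, and called members of the NF-kB feedback, prostaglandin and EGFR lists. Members, lists and rules were chosen with earlier results of these data known. Of 676 genes looked up, 660 matched RefSeq. The fits were also run on simulated counts with the same dispersion for all genes. That run cannot show error rates for groups chosen by expression in the same sections. Python 3.11.15, numpy 2.4.6, scipy 1.17.1 and pandas 2.3.3 did the rest.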

Additional observations from a re-analysis of the deposited data

Results flagged for a closer look

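The contrast between cytokine-rich and cytokine-poor spots differed between the higher- and lower-scoring spots in 22 genes by edgeR's interaction test, 5 with a higher and 17 with a lower contrast in the higher-scoring spots. The largest differences among genes of at least 20 CPM were those of SAA1 (-3.38, log2), HPR (-1.99), COL3A1 (-1.84), COL1A2 (-1.79) and FBLN1 (-1.67). COL3A1 had a contrast of -1.65 in the lower- and -3.59 in the higher-scoring spots, COL1A2 one of -0.71 and -2.58, and FBLN1 one of -0.20 and -1.86. Higher-scoring poor spots of tumor 1 lay at a median of 2 border steps, against 6 in the lower-scoring poor spots. In tumor 2 these medians were 6 and 4. The part of position in these differences was not tested.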

How the results depend on the processing

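The counts of calls moved with the processing. Beside 515 higher and 367 lower genes, spots thinned to 5000 UMIs gave 231 and 141, K of the adjacent spots alone 329 and 235, K without PTGS2 139 and 132, the highest 20% of K 194 and 121, library size alone 325 and 615, DESeq2 58 and 26, and the fit without the tumor (replicate block left out) 34 and 23. For pairs matched on the score (161 and 233), dropping the spots highest in other cells' markers gave 57 and 65, the same class of border steps 25 and 13, within 2 border steps 27 and 19, DESeq2 4 and 30, and no replicate block 6 and 32. For the interaction (5 and 17), a minimum of 10000 UMIs gave 2 and 9, DESeq2 0 and 4, and no filter 10 higher. The difference in border steps (7.74) was 6.65 with 10000 UMIs, 4.68 with K of the spot alone, 7.23 without PTGS2 and 6.51 with the frame edge as border. The frame edge mattered in tumor 2 alone, where the difference was 4.94 instead of 7.41, against 8.08 both ways in tumor 1. The border classes and the pairs held to border steps did not count the frame edge. Directions reversed for SAA1 without spots rich in other cells' markers (0.39, and 0.33 after matching), in the same border class (0.28) and within 2 border steps (0.061), for IFITM1 on thinned spots (-0.041) and for HSPA6 within 2 border steps (-0.48). The cause was not tested. Over the named genes 1214 values counted as the same, 201 kept direction only and 6 reversed, and DESeq2 kept 36 of 66 calls of the first comparison. The 1214 include, for each tumor left out, 74 values of the first comparison and 12 at matched score. Those values were compared by direction alone. The highest and lowest named genes had been chosen with 1 sign in both tumors, which fixes their direction there. Leaving out a tumor leaves no residual degrees of freedom, so it gave values only: 879 of the 882 genes called over all spots, 390 of 394 at matched score and 45 of 46 within 2 border steps had 1 sign in both tumors, and CCL26 was an exception. Sums of few UMIs limit CCL20, IL1B and the receptors.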

Other observations

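The sums of the red blood cell, macrophage and lymphocyte lists were each higher in the rich spots of 1 tumor and lower in those of the other. The 15 macrophage markers summed to 223 raw CPM in the rich and 231 in the poor spots of tumor 1, and to 221 and 197 in tumor 2. Member by member, 9 were tested, of which 3 were lower and 1 higher. Their median log2 fold change was -0.55 in tumor 1 and -1.03 in tumor 2, unlike the sum. The 7 lymphocyte markers summed to 3.79 and 3.28, and to 2.09 and 2.67, and only 1 of them had enough counts to be tested. The 6 red blood cell markers summed to 118 raw CPM in the rich and 60.5 in the poor spots of tumor 1, and to 16.4 and 45.4 in tumor 2. In pairs matched on score and border steps they summed to 56.0 against 19.9 and 23.5 against 8.12, and HBB passed the test there at a log2 fold change of 1.54 ± 0.22 (n = 2 tumors, edgeR adjusted p = 2.8e-09). Mouse and human globin reads cannot be told apart in these files.

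Metallothionein genes split among themselves. MT1X stood at 952 against 533 CPM in tumor 1 and 609 against 197 in tumor 2 (1.22 ± 0.08), while MT1M stood at 7.02 against 23.8 and 2.41 against 18.3 (-2.09 ± 0.22). These genes are near-copies of each other, so their counts are uncertain. Another list held 12 genes that act on the decay, stability or translation of mRNAs, AU-rich ones such as those of CXCL8 and IL6 included. Of these 12, 1 passed, ZFP36L2 (-0.31 ± 0.09, edgeR adjusted p = 0.014), at 70.9 against 85.0 and 78.5 against 101 CPM. Its close paralog ZFP36L1, counted among the NF-kB feedback inhibitors instead, was higher in the rich spots (0.54).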
